A study of Mus musculus with 20 samples.

Results

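The regions described here are 287 of 22081 binding regions in mouse T cells. They were chosen by the authors' lists: Bcl11b was listed there in wild-type (WT) regulatory T cells (Treg) and not in Tn cells, was listed in WT Treg and not in Treg cells without Foxp3, and the place was listed in common for Bcl11b and Foxp3 in WT Treg cells. They are called member regions, and the Bcl11b at them is by choice Treg-only and lost without Foxp3. A further 2 regions, at Arid3a and Virma, meet the same rule but stand in both the common and the Treg-specific list of the Tn comparison, and were left out.

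Bcl11b is a zinc-finger transcription factor that T cells need to develop and to keep their identity. Foxp3 is the forkhead transcription factor that defines Treg cells, which hold other immune cells in check and depend on interleukin-2 (IL-2) from them. Binding was mapped by chromatin immunoprecipitation and sequencing (ChIP-seq), in which DNA bound to a protein is pulled down with an antibody and sequenced.

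All cells came from C57BL/6 mice and were sorted from draining lymph nodes and spleen. Bcl11b was precipitated from WT Treg cells (3 libraries), from cells labelled Tn (3) and from KIKO cells (2), and Foxp3 from WT Treg cells (2) and from Treg cells without Bcl11b (2), with 8 input libraries beside these 12. WT Treg and Tn cells are both labelled Foxp3-IRES-YFP-Cre and CD4+YFP+, so the labels give no sort marker that tells Tn from Treg. KIKO cells are CD4+GFP+ cells of Foxp3-GFPKO mice, in which the Foxp3 gene makes GFP and no Foxp3. Bcl11b-KO cells are CD4+YFP+ cells of Bcl11b f/f Foxp3-IRES-YFP-Cre mice, in which the Cre is made from the Foxp3 gene, so Bcl11b is deleted in cells that express Foxp3. The WT Treg and Tn cells carry the same reporter and Cre, and the KIKO cells carry a different one.

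The files are lists of positions per group, with no read count, score or value per library, so the depth behind a region is unknown, absence from a list is no proof that the protein was absent, and no spread between replicates can be given. The labels do not say that replicates came from separate animals. Each p below compares regions of these lists, not conditions, and 95% Wilson intervals cover counting error only. No marker expression was available to check the cell types. Genes are the nearest protein-coding gene within 100 kb of a region's centre in RefSeq's GRCm38.p6, the assembly whose coordinates mm10 shares, and lists of genes were chosen with earlier results of these data known.

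Of the member regions, 57 touch a promoter window of the RefSeq table (250 bases before to 50 after a start site). For 4 of them the part upstream of the start that lies inside the region is printed, on the gene's strand and in GRCm38.p6, with every match to 11 searched motifs in capitals. Tigit is shown as the Treg signature gene whose promoter window a member region touches; the region ends 14 bases before the start. The other 3 were chosen after their values were seen. Etv3 is a region listed with Foxp3 in 1 of the comparisons and in none of the lists of the other. B3galt4 is one where Foxp3 was listed in WT cells and not in Bcl11b-KO cells. Tprgl holds a forkhead match, here with an ETS match directly on each side, one of which shares a base with it. The Tigit and Tprgl regions have their centres inside the annotated gene, so upstream there refers to the start site of the promoter table only.
Tigit, chr16:43664198-43664434, minus strand: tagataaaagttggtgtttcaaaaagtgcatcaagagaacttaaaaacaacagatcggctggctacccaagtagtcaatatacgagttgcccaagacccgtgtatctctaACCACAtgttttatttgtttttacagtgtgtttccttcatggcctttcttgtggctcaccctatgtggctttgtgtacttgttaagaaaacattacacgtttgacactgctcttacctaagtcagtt
Etv3, chr3:87525364-87525561, plus strand: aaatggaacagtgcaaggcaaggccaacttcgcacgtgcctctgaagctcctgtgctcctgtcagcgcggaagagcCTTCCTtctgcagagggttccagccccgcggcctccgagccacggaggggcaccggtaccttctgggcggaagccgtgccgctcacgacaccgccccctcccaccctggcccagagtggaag
B3galt4, chr17:33951489-33951738, minus strand: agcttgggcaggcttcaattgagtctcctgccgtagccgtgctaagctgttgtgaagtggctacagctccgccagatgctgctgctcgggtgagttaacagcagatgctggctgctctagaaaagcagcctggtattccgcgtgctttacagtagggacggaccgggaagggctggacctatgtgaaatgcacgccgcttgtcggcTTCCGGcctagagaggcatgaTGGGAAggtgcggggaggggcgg
Tprgl, chr4:154160759-154160934, minus strand: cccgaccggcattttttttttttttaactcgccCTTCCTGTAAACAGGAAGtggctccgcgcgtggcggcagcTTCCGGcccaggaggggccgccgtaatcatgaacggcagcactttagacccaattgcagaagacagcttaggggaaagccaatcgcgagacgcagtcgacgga
The capitals mark a RUNX match in Tigit, an ETS match in Etv3, an ETS match with CpG and an Rbpj match in B3galt4, and 2 ETS matches around a forkhead match and an ETS match with CpG in Tprgl. The Tigit stretch is 39.2% G and C with 4 CpG, the lowest share among the 66 upstream stretches of member regions, whose median was 64.0% and highest 76.3%.

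Each condition of the rule removed a different share of the regions. In the Tn comparison 2025 of the 6518 regions on the Treg side were Treg-specific (31.1%). In the KIKO comparison 3519 of the 5646 regions on the Treg side were lost (62.3%). In the Foxp3 comparison 4738 of the 7235 regions on the Bcl11b side were common (65.5%). Of the 2025 Treg-specific regions, 1756 were also lost in KIKO cells, and the 287 members are 16.3% of these. Since these 3 comparisons share the WT Treg Bcl11b group and chose the members, their shares are a description only.

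By width the member regions fall into 2 groups. Of the 287, 119 have a width of exactly 198 bp, the width at which most Treg-specific Bcl11b regions stand (1785 of 2025). The other 168 are 220 to 604 bp wide, with a median of 316.5 bp. Among regions that were Treg-specific, lost in KIKO cells and on the Bcl11b side of the Foxp3 comparison, 168 of the 188 with another width were common with Foxp3 (89.4%), against 119 of the 1558 with 198 bp (7.6%). So the shared class holds most of the wider regions of this kind and few of the narrow ones. Each set of regions has its own most frequent width, 198 bp for Treg Bcl11b and 220 bp for WT Foxp3. The 20 wider Foxp3-free regions all stand in a list of the Bcl11b-KO Foxp3 comparison, 6 as common to WT and Bcl11b-KO cells and 14 as Bcl11b-KO-specific. Foxp3-free, or without Foxp3, thus means listed for Bcl11b only in the comparison of Bcl11b with Foxp3. Width thus goes with the lists that hold a region, and this split is a description, not a separate property of the sites. How widths were set is not stated in what was read here.

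The narrow member regions are also those with Foxp3 evidence from a single list. In the comparison of Foxp3 between WT and Bcl11b-KO Treg cells, 121 of the 287 members stand in none of the 3 lists (42.2%). The share was 11.5% of all 4738 regions common to Bcl11b and Foxp3. Among the Treg-only, KIKO-kept, Foxp3-shared regions it was 40.7% (24 of 59), near that of the members. All 119 members of 198 bp are among the 121 unlisted members, and 2 of the 168 others are, at Mrps24 and Fbxw8. All 405 regions of 198 bp that are common to Bcl11b and Foxp3 are missing from these lists, so the pattern is not special to the members. Below, Foxp3 is called lost where this comparison lists it in WT and not in Bcl11b-KO cells. Both comparisons draw on WT Foxp3 libraries, though by the labels the second replicate is not tied to the list shared with Bcl11b. How the authors decided that a region is common is not stated in what was read here.

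Some of the narrow members lay near another Foxp3 region. Of the 119, 38 had another region listed for WT Foxp3 within 1 kb (31.9%), with a median distance of 3.40 kb. Among the wider members it was 28 of 168 (16.7%), with a median of 8.67 kb. Treg-only, KIKO-lost regions of the same width without Foxp3 had one within 1 kb in 64 of 1439 cases (4.4%), with a median of 15.38 kb. The call of shared was the basis of this split, so no test was made.

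**Figure D1:**
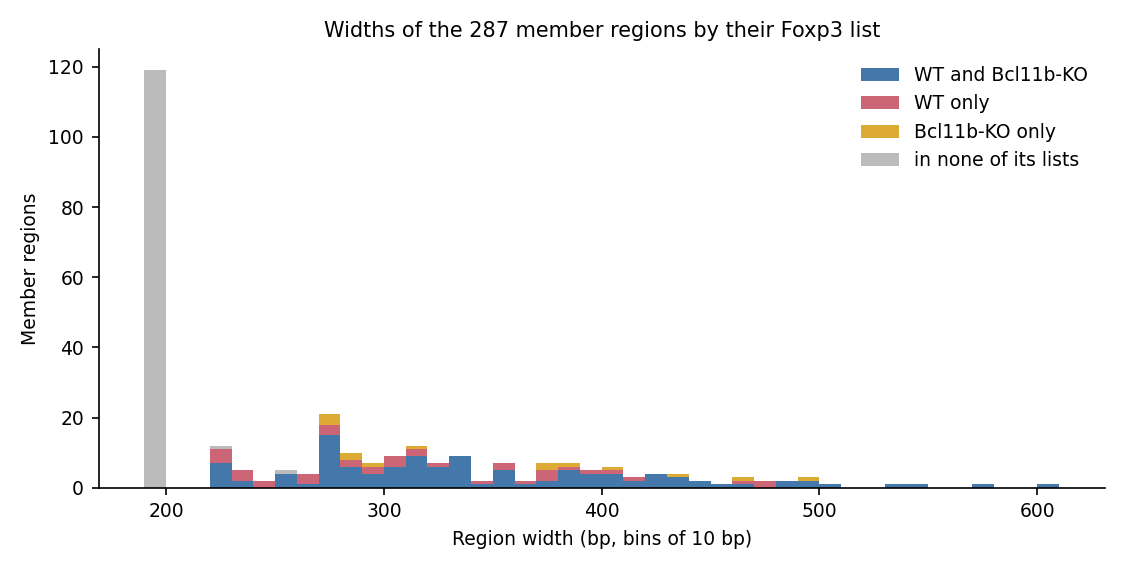
Widths of the 287 member regions in bp (x axis, bins of 10 bp) against the number of regions (y axis), coloured by the list that holds each region in the comparison of Foxp3 between WT and Bcl11b-KO Treg cells. The bar of 119 regions at 198 bp is wholly in none of these lists, while of the 168 wider regions all but 2 are listed.

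The members were assigned to 277 genes, 270 with 1 member and 7 with 2, and 3 members had no protein-coding gene within 100 kb. The 7 genes with 2 are Cish, Tnfrsf8, Myb, Kat2b, Cyth3, Zc3hav1 and Adora2a. Among 17 gene lists, 23 members at 21 genes stood on at least 1 list. The Treg signature held the most, 7 members at 7 of its 29 genes in the table, or 2.44% of members, beside 36 of the 7235 regions on the Bcl11b side (0.50%). The 7 genes are Foxp3, Il2ra, Ctla4, Tigit, Nrp1, Swap70 and Tnfrsf9. Since the members were taken as Treg-only and Foxp3-shared with results known, this is a description and not independent evidence.

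Only 1 region in all lists was assigned to Foxp3 itself, and it was a member. It spans 295 bp at chrX:7583933-7584227, inside the gene, 3.60 kb past the nearest start site. Bcl11b there was listed in WT Treg cells and not in Tn or KIKO cells, and Foxp3 was listed in both WT and Bcl11b-KO cells. Foxp3 is also the gene that carries the reporter in all of these mice, with another construct in KIKO cells than in WT cells. A second member, at chrX:7567482-7567679, lay 16.5 kb away inside Ppp1r3f, the neighbouring gene, and is 1 of the 198-bp regions. Ppp1r3f held 3 further regions, listed for Foxp3 and not for Bcl11b in WT Treg cells.

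The receptor genes of the Treg signature differed in where the member lay. Il2ra, the alpha chain of the high-affinity IL-2 receptor, had its member at chr2:11651574-11651875, 8.93 kb into the gene, where Foxp3 was listed with and without Bcl11b. A neighbouring Il2ra region at chr2:11653334-11653671 was also lost in KIKO cells but was shared with Tn cells. Ctla4, which encodes an inhibitory receptor that binds CD80 and CD86, had its member at chr1:60913292-60913648, 4.45 kb into the gene, again with Foxp3 listed in both. At Ctla4 3 other regions, 220 bp wide, listed Foxp3 in WT cells and not in Bcl11b-KO cells. Tigit, another inhibitory receptor gene, had its member just upstream of the start site of the promoter table, at chr16:43664198-43664479, with Foxp3 in both. The centre of that region still lies inside the gene as annotated, 0.79 kb from a gene end.

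The other 3 Treg signature genes each fell in a different class. Nrp1, which encodes neuropilin-1, a surface marker of thymus-derived Treg cells, had a member of 198 bp at chr8:128368779-128368976. Swap70, which encodes a regulator of Rac and the actin cytoskeleton, had a 276-bp member at chr7:110237595-110237870, where Foxp3 was listed in WT cells and not in Bcl11b-KO cells. Tnfrsf9, the gene of the costimulatory receptor 4-1BB, had a 497-bp member at chr4:150924231-150924727, which was listed for Foxp3 in Bcl11b-KO cells only. In the Foxp3 and Bcl11b comparison the same Tnfrsf9 region is listed for WT Foxp3, so the 2 comparisons conflict there. Tnfrsf8, the gene of the related receptor CD30, had 2 members 33.63 kb apart, of which the one at chr4:145266635-145266897 lost Foxp3 in Bcl11b-KO cells and the one at chr4:145300258-145300544 was listed for Foxp3 in Bcl11b-KO cells only.

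Ikzf2, Ikzf4 and Il10 had no member. All 6 regions of Ikzf2, the gene of the Treg factor Helios, were without Treg Bcl11b. Ikzf4, the gene of the related factor Eos, had a Treg-only region lost in KIKO cells at chr10:128657894-128658091, listed for Bcl11b and not for Foxp3. Il10, the gene of an anti-inflammatory cytokine, had a Treg-only region shared with Foxp3 at chr1:131025849-131026132, which was kept in KIKO cells. So the regions named here fell outside the rule at different steps. Ikzf4 also had 2 regions common to Bcl11b and Foxp3, and Il10 had another at chr1:131010549-131010846. These stand in no list of the Tn or KIKO comparison, so the rule could not place them.

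The IL-2 and STAT5 list held 5 members at 4 of its 23 genes, 1.74% of members beside 0.57% of Bcl11b regions. IL-2 signals through its receptor to the transcription factor STAT5, which Treg cells need. Besides Il2ra these genes are Il2rb, Cish and Bcl2l1. Il2rb, the beta chain of the receptor, had a 314-bp member inside the gene at chr15:78493577-78493890, listed for Foxp3 in Bcl11b-KO cells only. A second Il2rb region, at chr15:78495112-78495437, was Treg-only and Foxp3-shared but was kept in KIKO cells. Cish, a feedback inhibitor induced by STAT5, had 2 wide members, of 497 bp at chr9:107295742-107296238, 0.67 kb before the start, and of 370 bp at chr9:107312852-107313221, 16.38 kb past it. Foxp3 was listed with and without Bcl11b at both Cish members. Bcl2l1, which encodes the survival protein Bcl-xL, had a member at chr2:152825799-152826100 that lost Foxp3 in Bcl11b-KO cells, as did 2 of its other 3 regions.

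Transcription factor genes made up much of the rest of the list members. In the list of AP-1, Batf and Jun genes 3 of 18 had a member, at 1.05% of members beside 0.32% of Bcl11b regions. AP-1 factors are activated by the T cell receptor. Fos had its member 1.5 kb before the start at chr12:85472243-85472534, with Foxp3 in both cell types, while the region at the Fos start itself was kept in Tn and KIKO cells. The member near Jund, 2.22 kb before the start at chr8:70695384-70695659, was listed for Foxp3 in Bcl11b-KO cells only. Bach2, whose product restrains effector genes and competes with AP-1, had a 472-bp member inside the gene at chr4:32404935-32405406, where Foxp3 was lost without Bcl11b.

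The list of naive and T lineage genes held 4 members at 3 of its 27 genes in the table, 1.39% beside 0.68%. Besides Bach2 these are Myb, which encodes a factor of lymphoid progenitors and effector Treg cells, and Ccr7, the receptor that guides naive cells into lymph nodes. Myb had a member of 198 bp, 0.69 kb before the start, and one of 277 bp, 17.51 kb before it at chr10:21178358-21178634, where Foxp3 was lost without Bcl11b. Ccr7 had a 429-bp member at chr11:99163093-99163521, 8.23 kb outside the gene, with Foxp3 in both, while 5 of its 8 regions lost Foxp3 in Bcl11b-KO cells.

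The remaining list genes had 1 member each. Nr4a2, an early target of T cell receptor signalling, had a 480-bp member at chr2:57116504-57116983, 7.26 kb past the nearest start, with Foxp3 in both; it was the only one of 43 genes of T cell receptor signalling, at 0.35% of members beside 0.91% of Bcl11b regions. In the TGF-beta list, the inhibitor gene Smad7 had a member 13.61 kb from the gene with Foxp3 in both, and the receptor gene Tgfbr2 one of 198 bp at chr9:116189347-116189544, 14.08 kb before its start. Birc3, which encodes an inhibitor of apoptosis in NF-kB signalling, had one of 198 bp at chr9:7862792-7862989. Its neighbour Birc2, named after values were seen, had a 389-bp member 32.8 kb away. Il12a, which encodes a subunit of cytokines that include the suppressive IL-35, had a 489-bp member at chr3:68676931-68677419, 13.47 kb before the start, with Foxp3 in both. Rbpj, the DNA-binding effector of Notch signalling, had a 198-bp member at chr5:53572705-53572902, beside 3 Treg-only, KIKO-lost regions without Foxp3.

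Lists without a member were the T helper effector genes (0 of 30), the NuRD complex and corepressors of Bcl11b (0 of 19), housekeeping genes (0 of 18), neural genes (0 of 15) and the markers of B cells (0 of 8), myeloid cells (0 of 8) and CD8 T and NK cells (0 of 12). All of these held few Bcl11b regions at large. Of the 7235, 22 were at T helper effector genes (0.30%), 14 at housekeeping genes (0.19%), 9 at the NuRD list (0.12%), 3 at neural genes (0.04%) and 1 at each of the 3 marker lists, so 0 of 287 is not far from these shares.

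The other genes with 2 members have varied roles. Kat2b encodes a histone acetyltransferase, Cyth3 a guanine nucleotide exchange factor for Arf proteins, Zc3hav1 an antiviral protein that binds RNA, and Adora2a an adenosine receptor that dampens T cell responses. At Kat2b, Zc3hav1 and Adora2a 1 member was 198 bp wide and the other was wider with Foxp3 in both cell types. At Cyth3 the member 0.50 kb before the start kept Foxp3 in Bcl11b-KO cells and the one 8.58 kb past the start lost it. The Zc3hav1 member at chr6:38342216-38342819 was the widest of all, at 604 bp, followed by those at Plekhj1 (574 bp), Cep63 (548 bp), Cdc5l (530 bp) and Zpr1 (509 bp). Foxp3 was listed with and without Bcl11b at all 5 of these.

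Further members at regulators of T cells were named after their values were seen. Gfi1 and Nfil3, which encode transcriptional repressors, had members inside the genes, 6.11 kb and 0.48 kb past a start, and both lost Foxp3 in Bcl11b-KO cells. Klf6, Etv3 and Fli1 are transcription factor genes with members of 198 bp, those of Klf6 and Etv3 within 0.2 kb of the start. Pik3cd and Pik3r1, the catalytic and regulatory subunits of a phosphoinositide kinase, each had a member of 198 bp. Csf1, a growth factor of macrophages, had a 278-bp member 0.21 kb past a start, with Foxp3 in both. A 276-bp member assigned to Zswim4 at chr8:84204007-84204282 lay 4.37 to 4.67 kb before the hairpins of Mir23a, Mir27a and Mir24-2, microRNAs made from 1 transcript.

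**Figure D2:**
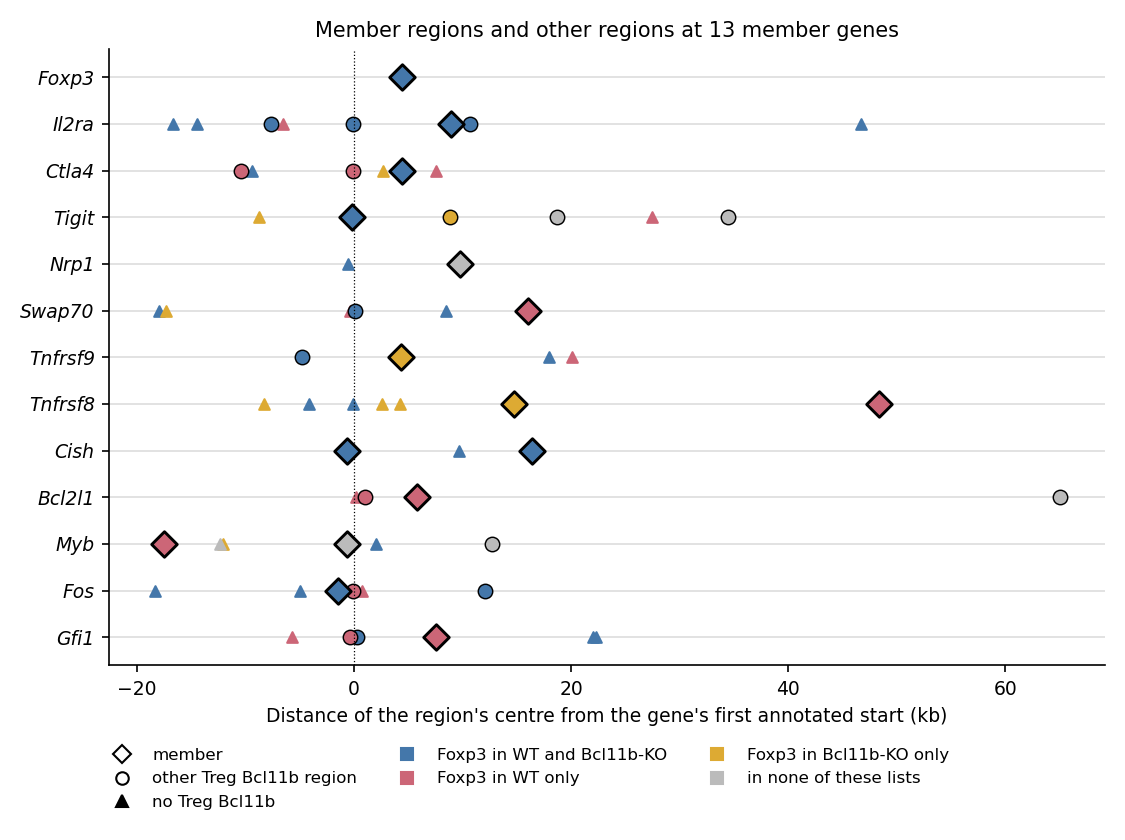
Regions at 13 member genes by the distance of their centre from the gene's first annotated start in kb (x axis, genes in rows). Diamonds are member regions, circles other Treg Bcl11b regions and triangles regions without Treg Bcl11b, coloured by the list in the comparison of Foxp3 between WT and Bcl11b-KO cells. Only regions assigned to each gene are drawn. By that assignment Foxp3 has its member alone, while Il2ra and Ctla4 have theirs among 8 and 6 regions.

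Member genes often held other regions too. Of the 277 genes, 223 had at least 1 region that is no member (80.5%). A region listed for Foxp3 without Bcl11b was found at 166 (59.9%), beside 44.7% of all genes with a Treg Bcl11b region. That difference was not tested. A region listed for Bcl11b in Tn cells was assigned to 99 (35.7%), and one listed in KIKO cells to 40 (14.4%). At 178 genes, then, no region of the gene was listed for Bcl11b in Tn cells. Over all 6309 genes with a Treg Bcl11b region, 63.2% had one listed in Tn cells and 31.6% one in KIKO cells, counts that include the regions themselves and so are no test.

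The comparison of Foxp3 between WT and Bcl11b-KO cells was not used to choose the members and asks whether Foxp3 stays at them when Bcl11b is deleted. Foxp3 was listed in both at 113 members, in WT cells only at 39 and in Bcl11b-KO cells only at 14, with 121 unlisted. Of the 152 listed for WT Foxp3, 25.7% (19.4 to 33.1) were lost in Bcl11b-KO cells, beside 31.3% of all 15365 regions on the WT side, so 74.3% kept Foxp3. Among regions shared with Tn cells, lost in KIKO cells and shared with Foxp3 the lost share was 28.3% (254 of 898). Among those kept in both Tn and KIKO cells and shared with Foxp3 it was 26.4% (262 of 991), and among Treg-only ones kept in KIKO cells 13.3% (4 of 30).

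None of these differences was past the threshold of 0.05 in a two-sided Fisher's exact test with Benjamini-Hochberg adjustment over 7 tests. Against the Tn-shared, KIKO-lost regions the odds ratio of loss was 0.875 (95% interval 0.575 to 1.31, exact test, adjusted p = 0.65). Against those kept in both it was 0.960 (0.632 to 1.44, exact test, adjusted p = 0.92), and against the Treg-only, KIKO-kept ones 2.23 (0.710 to 9.36, adjusted p = 0.29). The intervals allow from 0.575-fold to 1.44-fold odds against the 2 large classes, so differences up to that size in either direction remain possible.

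Members that lost Foxp3 include Bach2, Bcl2l1, Gfi1, Nfil3, Swap70 and 1 each of the members at Myb, Cyth3 and Tnfrsf8. The 14 listed for Foxp3 in Bcl11b-KO cells only, 4.88% of the members, include Il2rb, Tnfrsf9, Jund, Tnfrsf8 and Bhlhe40, the last a regulator of cytokine genes. All 14 are also listed in common for Bcl11b and WT Foxp3, so 2 comparisons of the authors disagree on WT Foxp3 at them. Of all 4738 regions common with Foxp3, 87 were of this kind (1.84%). The share was 8.47% among the Treg-only, KIKO-kept, Foxp3-shared regions (5 of 59) and 1.83% among the Tn-shared, KIKO-lost ones. These differences were not tested.

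**Figure D3:**
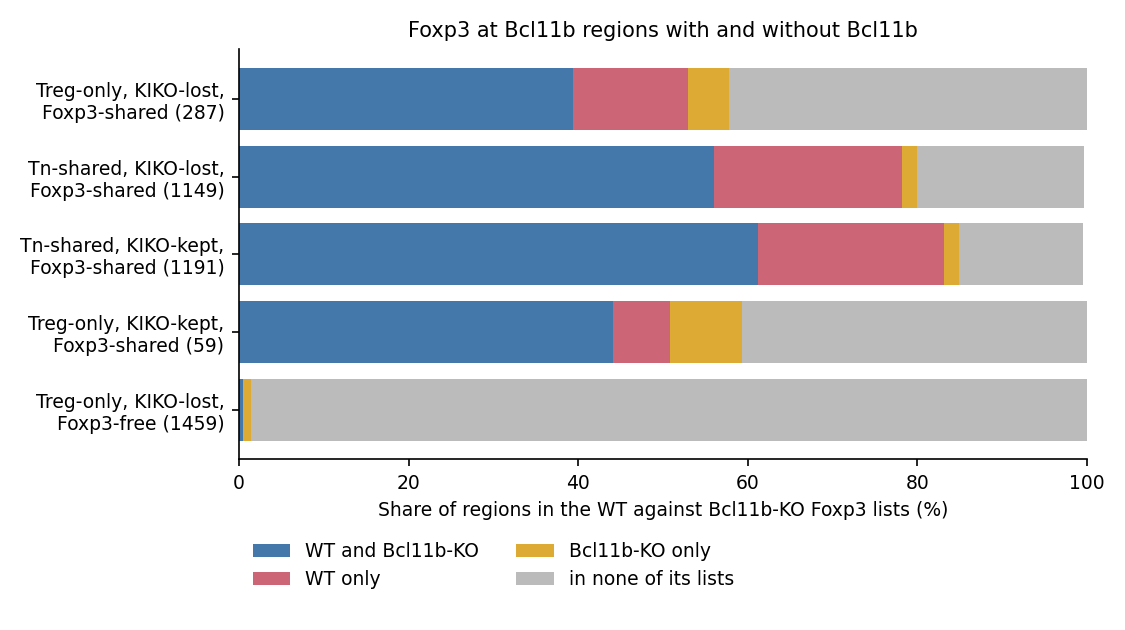
Share of regions (x axis, %) in each list of the comparison of Foxp3 between WT and Bcl11b-KO Treg cells for the member regions (top bar, 287) and 4 other classes of Treg Bcl11b regions, with the number of regions in brackets. The short gaps at the right of the Tn-shared bars are 4 and 5 regions that stand in 2 lists. The grey part is 42.2% for the members, 19.7% for the class below and 40.7% for the Treg-only, KIKO-kept, Foxp3-shared class.

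Where the members lie relative to genes was not used by the rule either. Of the 287, 190 lay inside a protein-coding gene (66.2%, 60.6 to 71.4), and 106 lay no more than 1 kb from such a gene's end (36.9%, 31.6 to 42.7), beside 37.9% of all 22081 regions. Their median distance from a gene end was 3.45 kb, and 94 were more than 10 kb away. Both ends count because the gene table gives no strand. At start sites of the promoter table alone, 96 members lay within 1 kb (33.4%).

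Members lay at gene ends less often than shared Bcl11b regions and more often than Treg-only regions without Foxp3. Of the Tn-shared, KIKO-lost, Foxp3-shared regions 54.9% were within 1 kb of a gene end (631 of 1149; odds ratio for members 0.481, 0.365 to 0.632, Fisher's exact test, adjusted p = 1.2e-07). Of the regions kept in both Tn and KIKO cells and shared with Foxp3 it was 68.0% (810 of 1191; odds ratio 0.276, 0.208 to 0.363, exact test, adjusted p = 3.1e-21). Of the Treg-only, KIKO-lost regions without Foxp3 it was 9.25% (135 of 1459; odds ratio 5.74, 4.21 to 7.81, exact test, adjusted p = 7.1e-28). The 59 Treg-only, KIKO-kept, Foxp3-shared regions were at 30.5%, with an odds ratio of 1.33 (0.707 to 2.60, exact test, adjusted p = 0.52) that leaves the direction unresolved.

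Width moves with this result. Within the members the share was 42.3% for the 168 wider regions and 29.4% for the 119 of 198 bp, and 98.6% of the Foxp3-free class are 198 bp wide. Among regions of 198 bp alone the difference from the Foxp3-free class remained, with 29.4% against 9.10% (odds ratio 4.15, exact test, adjusted p = 1.0e-08). Among regions of other widths it was no longer past the threshold, with 20 Foxp3-free regions (odds ratio 2.91, exact test, adjusted p = 0.21). Against the Tn-shared, KIKO-lost class the odds ratio was 0.501 (exact test, adjusted p = 0.013) at 198 bp and 0.564 (adjusted p = 0.0027) at other widths.

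**Figure D4:**
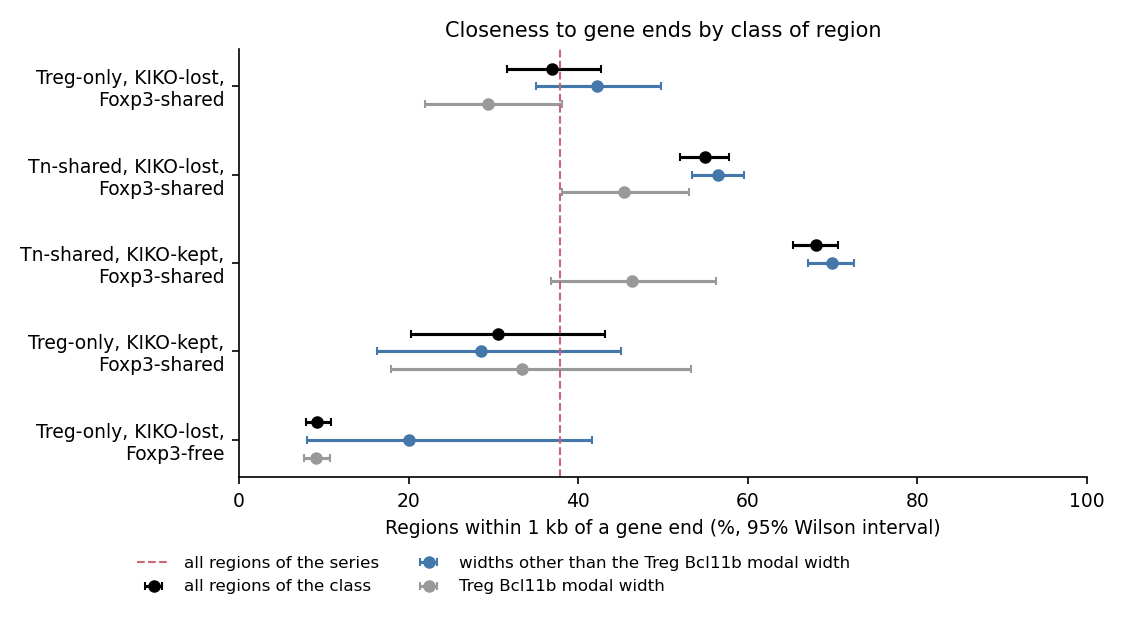
Share of regions with a centre at most 1 kb from a protein-coding gene's end (x axis, %, with 95% Wilson intervals) in 5 classes of Treg Bcl11b regions, for all regions (black), widths other than 198 bp (blue) and 198 bp (grey). The dashed line is the share over all regions, 37.9%; the members, in the top row, lie near it, between the Tn-shared classes and the Foxp3-free one.

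Of the 23 list members 3 lay within 1 kb of a gene end, beside 106 of all 287, a difference that was not tested. These 3 are at Cish, Tigit and Myb. The promoters that members touch include those of genes of general cell function, among them Cdc5l, a splicing factor, Eif3c, a translation initiation factor, and Psmd5, a proteasome chaperone. These 3 were named after their values were seen. By class, 43.4% of the members with Foxp3 in both cell types, 48.7% of those that lost it, 14.3% of the 14 listed in Bcl11b-KO cells only and 29.8% of the unlisted ones were within 1 kb of a gene end.

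Motifs could be searched in promoter windows only, since sequence outside them was not used here. The 57 members touch 73 windows of 300 bases, at 70 genes. Each touched window was searched whole, so a match can lie outside the member region. The shares below are thus of promoter windows and not of the bound sequence. These windows had a median G and C share of 63.0% and 25 CpG, beside 52.7% and 7 over all 32851 windows. Windows touched by the Tn-shared, KIKO-lost, Foxp3-shared regions were alike, at 62.7% and 24, while the 28 touched by Foxp3-free Treg-only regions stood at 55.5% and 8.

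The forkhead motif TGTTTAC, the kind of sequence Foxp3 binds, was in 2 of the 73 windows on either strand (2.74%, 0.75 to 9.45), beside 3.65% of all windows. The repeat-like TTTGTTTG was in 3 (4.11%, 1.41 to 11.4), beside 2.61%. The short motif TGACCA, bound by the related factor Bcl11a, was in 8 (11.0%, 5.66 to 20.2), beside 13.6%. None of these 3 shares stood apart from all windows beyond its interval.

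The ETS motif with a CpG, CCGGAA, was in 35 of the 73 (47.9%, 36.9 to 59.2), beside 14.9% of all windows and 47.6% of the windows of the Tn-shared, KIKO-lost class. The ETS motif without it, AGGAAG, was in 17 (23.3%, 15.1 to 34.2), beside 35.4%. The AP-1 motif TGANTCA was in 1 (1.37%, 0.24 to 7.36), beside 7.81%. For the windows of the Tn-shared, KIKO-lost class these shares were 34.1% for AGGAAG and 3.96% for AP-1, both inside the members' intervals. The windows of members are richer in CpG than the table at large, and its part in these shares was not tested. RUNX (TGTGGT, 16.4% beside 16.8%) and E-box (CAGCTG, 16.4% beside 16.3%) had intervals that hold the share of all windows. So did Rbpj (TTCCCA, 20.5% beside 25.6%) and the NF-kB motif (GGGANTTT, 1.37% beside 4.51%). The CRE motif TGACGTCA was in 4 windows (5.48%, 2.15 to 13.3), beside 1.79% of all and 4.42% in the Tn-shared, KIKO-lost class. Of these 4, the windows of Cdc5l and B230354K17Rik overlap and hold the same match. Windows that share bases are not independent, so the intervals are too narrow and no difference is drawn for CRE. The 11 motifs were compared by interval only, with no adjustment for their number. Motifs can overlap, as in the Tprgl stretch, and a match is a run of letters and not a bound site.

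**Figure D5:**
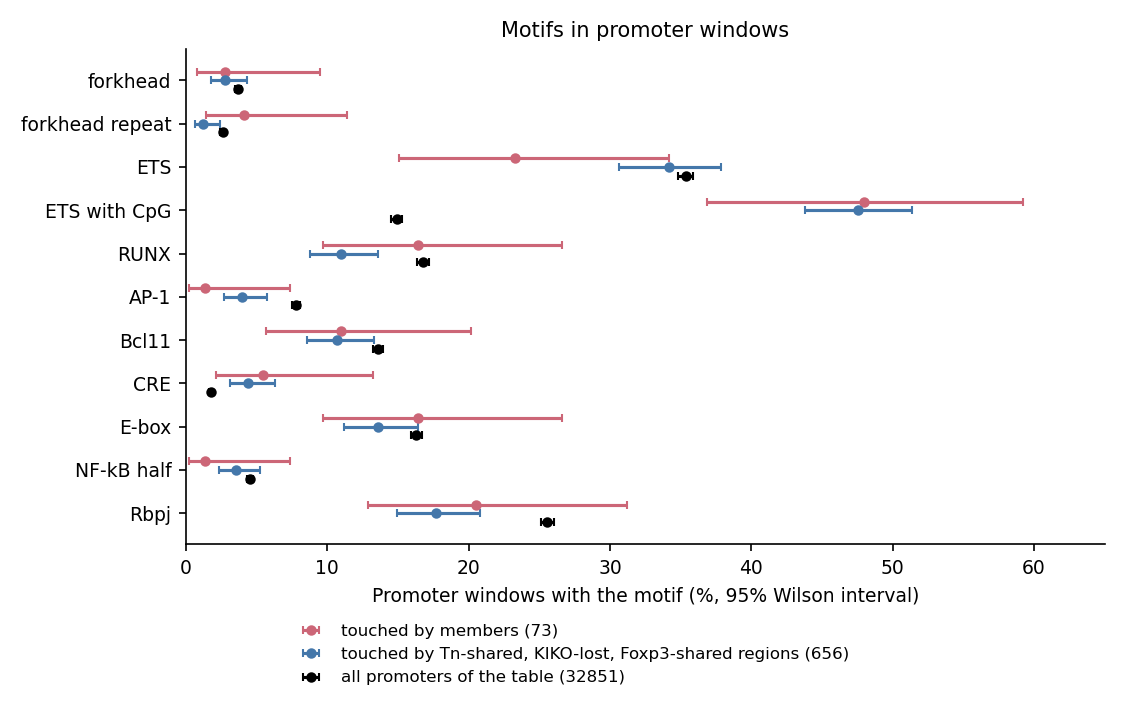
Share of promoter windows with each of 11 motifs on either strand (x axis, %, 95% Wilson intervals) among the 73 windows touched by members, the 656 touched by Tn-shared, KIKO-lost, Foxp3-shared regions and all 32851 windows. The ETS motif with a CpG stands at 47.9% and 47.6% in the first 2 groups against 14.9% in all, and the forkhead motifs do not stand apart.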

How the data were processed

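ChIP-seq libraries of Bcl11b, Foxp3 and input DNA were made from sorted CD4+ cells. The submitters' processing notes name HISAT2 2.1.0, HOMER 4.10.1, SAMtools 1.3, deepTools, FastQC, cutadapt 1.12 and Trim Galore 0.4.2, without roles, and mm10. The authors deposited 12 lists of positions for 4 comparisons. Whether replicates were pooled and which peak threshold was set is not given in the sources used here. By their labels, the third replicate of Treg Bcl11b is tied to no list, and the second of WT Foxp3 not to the one shared with Bcl11b. Of 47553 rows, 127 repeats were dropped, and 25 regions in 2 classes of 1 comparison were left out of it. No regions overlap, so identity equals overlap.

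Members and gene lists were chosen with earlier results of these data known. Tests were two-sided Fisher's exact tests with conditional odds ratios, adjusted by Benjamini-Hochberg over 7, checked on simulated data. The planned start sites were replaced by either end of 21896 protein-coding genes, for want of strand. Named were all genes with 2 members, list genes, Foxp3, Il2ra, Ctla4, Ikzf2, Ikzf4, Il10, the 5 widest members, and others where stated; promoter sequences are RefSeq's (GRCm38.p6). Software was Python 3.11.15 with scipy 1.17.1, pandas 2.3.3, matplotlib 3.10.9 and numpy 2.4.6.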

Additional observations from a re-analysis of the deposited data

How the results depend on the processing

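The members numbered 287 when regions were matched by an overlap of at least 1 bp or by centres within 100 bp. Neither matching could change the count, since no regions overlap and the narrowest is 198 bp wide. With regions in 2 classes kept there were 289. Requiring a place on the WT Foxp3 side of the Bcl11b-KO comparison, an alternative chosen after seeing the data, left 152. The loss of Foxp3 stayed without a call in all alternatives; against the regions kept in Tn and KIKO cells its odds ratio turned from 0.960 to 1.04 over 1 kb from a gene end. The gene end difference from the Foxp3-free class fell to an odds ratio of 2.57 among regions wider than 276 bp (exact test, adjusted p = 0.4) and to 2.91 without regions of 198 bp, both with few Foxp3-free regions left, and among regions of 198 bp alone the one against Treg-only, KIKO-kept regions turned to 0.834. The last 2, and start sites of the promoter table, were chosen after seeing the data. The gene end calls against the other classes did not change side in the alternatives run. With gene bodies and 10 kb on each side, the TGF-beta list held 0 members in place of 2. No paired analysis was possible because the lists are per group and hold no value per replicate. For the same reason no replicate could be left out.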
